A study of Mus musculus with 7 samples.

Results

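The genes described here encode parts of the motile axoneme, the microtubule core of cilia and flagella, and were taken as every gene whose symbol starts with Cfap, Rsph, Drc or Tekt followed by a digit. The rule was met by 63 of 21965 deposited genes: 47 Cfap (cilia and flagella associated protein), 8 Rsph (radial spoke head homolog), 3 Drc (dynein regulatory complex) and 5 Tekt (tektin) genes. They were measured by RNA-seq of polyadenylated RNA in mouse hippocampus, the brain region of spatial and episodic memory, in 7 libraries. The NIHHL group held 4 libraries from mice in which noise of 110 dB for 2 h had induced hidden hearing loss, and the Control group held 3 libraries from blank controls. Hippocampus was collected 1 month after induction. Strain, genotype, sex and age are not given in the labels used here, and the labels do not state that the numbered samples are separate animals, so a p-value covers only the spread among these samples, which may be technical.

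Motile cilia and sperm flagella share an axoneme of outer doublet microtubules around a central pair. Radial spokes reach from each doublet to the central pair, outer and inner dynein arms slide neighbouring doublets past each other, and the nexin-dynein regulatory complex links the doublets and holds that sliding in check. Tektins and other inner proteins line the inside of the doublets. In the brain, cilia of this kind are carried mainly by ependymal cells, which line the ventricles, and the choroid plexus epithelium, which secretes cerebrospinal fluid, expresses some of the same genes. Hippocampal neurons and astrocytes carry a single primary cilium that lacks the central pair and, in general, the spokes and dynein arms.

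Total counts per library lay between 14871367 and 24515138, and 16292 to 16825 genes were detected in each. Levels are given as CPM, counts scaled to a common library size by the trimmed mean of M values. Means are followed by the SD over 4 NIHHL and 3 Control libraries, and log2 fold changes are NIHHL over Control with their standard error (SE). Counts were too low for the test in 8 of the 63 genes, which left 55, among 14417 tested genes. The label of the tissue matched its markers: Snap25, a synaptic protein of neurons, averaged 1215 CPM in NIHHL and 1377 CPM in Control libraries, and Prox1, a transcription factor of dentate granule cells, 139 CPM in NIHHL and 117 CPM in Control libraries.

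No axoneme gene differed between NIHHL and Control at an adjusted p under 0.05 in edgeR's quasi-likelihood test with Benjamini-Hochberg adjustment, and none of the 14417 tested genes did, a background of 0%. The smallest adjusted p among the 55 genes was 0.996 by the same test. DESeq2 called 4 of 18177 genes (0.022%) and no axoneme gene. Before adjustment 15 axoneme genes had an edgeR p under 0.05, all 15 higher in NIHHL, which is 27.3% of the 55. Over all tested genes 523 had such a p (3.63%), 334 of them higher in NIHHL (2.32%) and 189 lower (1.31%). Without Control replicate 1 the number of axoneme genes with such a p was 8, against 15 with all libraries. Over all genes tested in that fit the number rose to 808, against 523 with all libraries.

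The fold changes of the axoneme genes lay mostly on the higher side. Of the 55 genes, 45 had a log2 fold change above 0 (81.8%), against 49.9% of all tested genes. Their median log2 fold change was 0.35, with a range of -0.24 to 0.97, and the median over all tested genes was -0.00045. In 10 genes every NIHHL library was above every Control library (18.2%), a pattern found in 2.84% of all tested genes. In no axoneme gene was every NIHHL library below every Control library, a pattern found in 2.37% of all tested genes. The median rests partly on single libraries: it was 0.21 without NIHHL replicate 1 and 0.20 without NIHHL replicate 2. In bulk tissue, more cells of a type and more RNA per cell cannot be told apart.

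**Figure D1:**
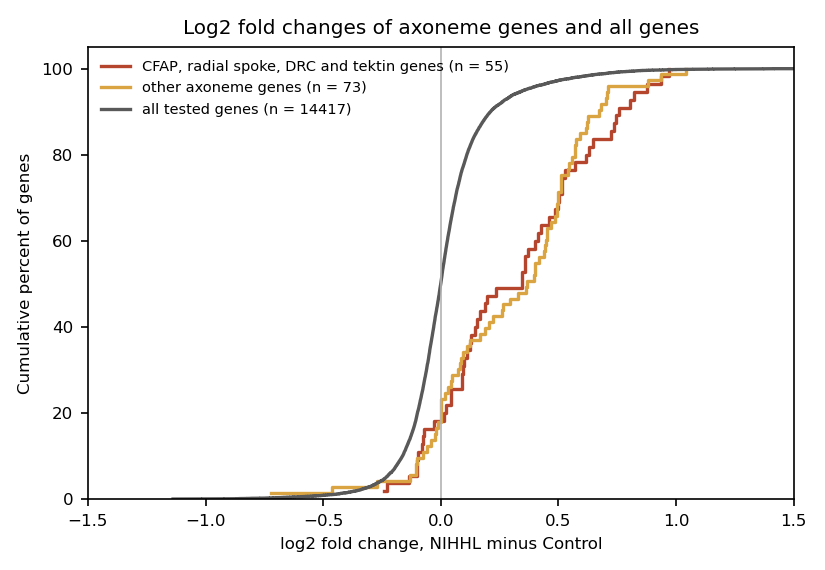
Cumulative percent of genes (y axis) by log2 fold change (NIHHL over Control, x axis) for the 55 tested axoneme genes, for 73 axoneme genes with other names and for all 14417 tested genes. Both axoneme curves lie to the right of that of all genes, with medians of 0.35 and 0.37.

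The split by level was uneven. The median CPM of the 55 genes was 5.82, and all 27 genes below it were higher in NIHHL (median log2 fold change 0.41). Of the 28 genes at or above it, 18 were higher in NIHHL and 10 were lower (median 0.07). The genes at the top of the range per length are not specific to motile cilia: Cfap36, a protein that binds the ciliary GTPase ARL3, averaged 26.7 CPM per kb of exon over all libraries, and Cfap418, a protein that photoreceptors need, averaged 21.2 CPM per kb. The spoke head gene Rsph9 followed at 11.1 CPM per kb, behind the dynein arm assembly factor Cfap298 at 18.1 CPM per kb. The median over the 54 genes with a known exon length was 1.28 CPM per kb, and the lowest was 0.115 CPM per kb in Cfap97d2.

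**Figure D2:**
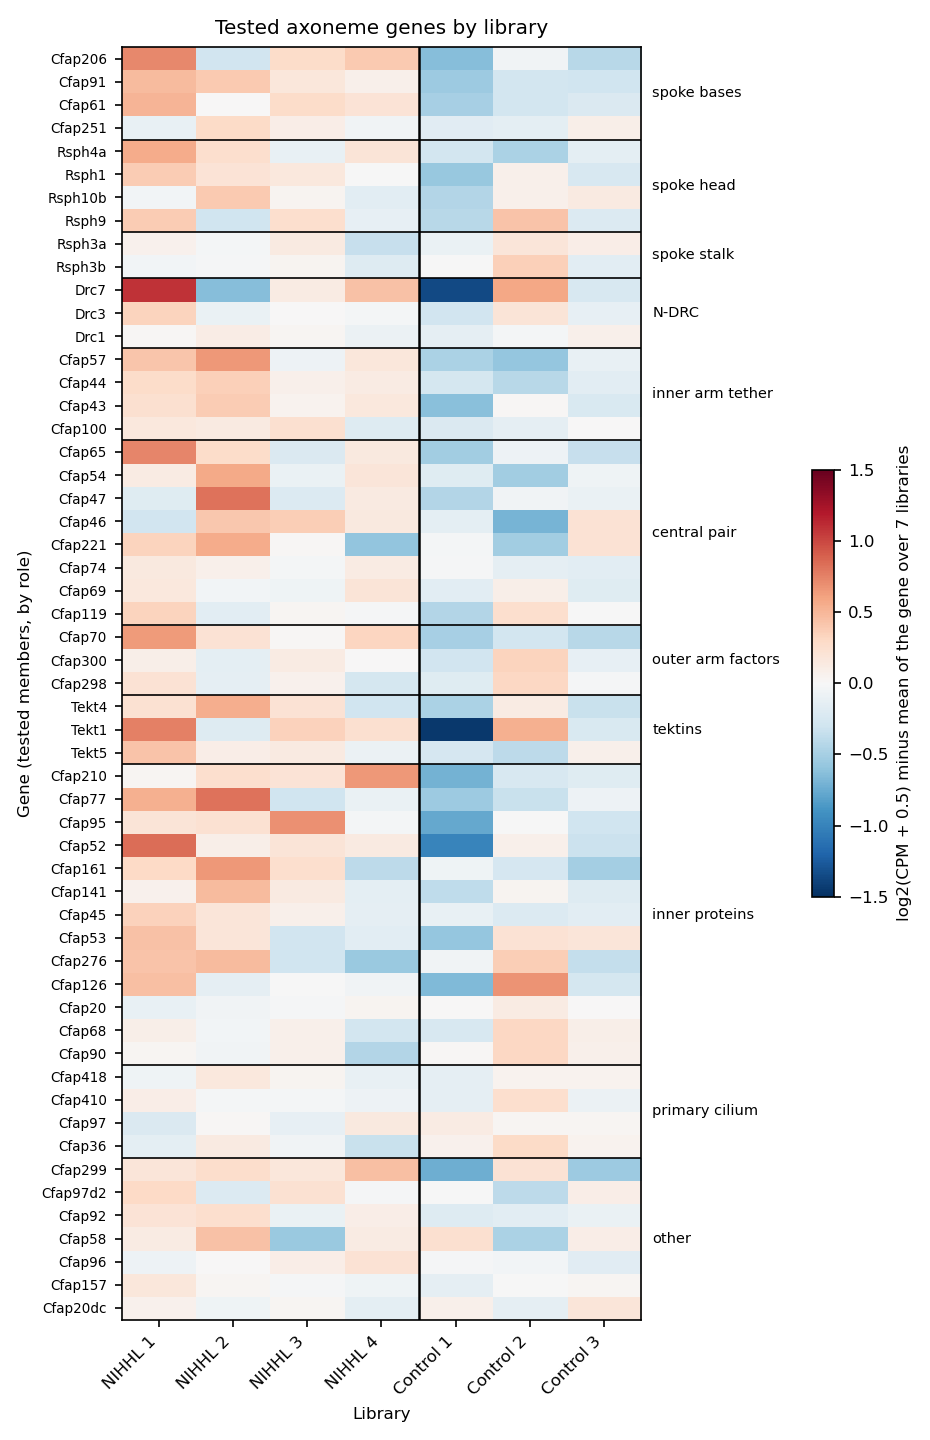
Each row is an axoneme gene and each column a library, NIHHL left of Control, coloured by log2(CPM + 0.5) minus the gene's mean over libraries. Control replicate 1 is the lowest of the 7 libraries for 31 of the 55 genes, and NIHHL replicates 1 and 2 are each the highest for 18.

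Among the proteins at the bases of the spokes, all 4 tested genes had a log2 fold change above 0, with a median of 0.68. Of the 4, 3 had an unadjusted edgeR p under 0.05 on the higher side, against 2.32% of all tested genes. Cfap91 (ENSMUSG00000022805, chr16:38297754-38342143, minus strand, GRCm38) encodes a protein of the calmodulin- and spoke-associated complex, known from Chlamydomonas to sit at the spoke bases. It had 6.40, 6.03, 5.07 and 4.72 CPM in NIHHL replicates 1 to 4, against 2.90, 3.61 and 3.54 CPM in Control replicates 1 to 3. Every NIHHL library was above every Control library. The log2 fold change was 0.72 (SE 0.17, 95% interval 0.35 to 1.10), with an unadjusted edgeR p of 0.00135 and an adjusted p of 0.996 by edgeR's quasi-likelihood test. The exact two-sided permutation p was 0.0286, the smallest that 35 splits of 7 libraries into 4 and 3 allow. Part of Cfap91, 305 exonic bases, overlaps the antisense gene Maats1os, and reads of the 2 genes cannot be told apart here because no source used here says whether the libraries were stranded.

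Cfap61, another protein of the same complex, had 7.32, 5.0, 6.11 and 5.84 CPM in NIHHL replicates 1 to 4, against 3.37, 4.03 and 4.20 CPM in Control replicates 1 to 3. The groups did not overlap, and the log2 fold change was 0.65 (SE 0.17). Cfap206, which docks a spoke to the doublet in Tetrahymena, had 7.0, 3.22, 5.01 and 5.49 CPM in NIHHL, against 2.43, 3.90 and 2.92 CPM in Control libraries. Here NIHHL replicate 2 lay below Control replicate 2, and the log2 fold change was 0.74 (SE 0.26). Cfap251, the remaining gene of the group, averaged 6.43 ± 0.878 CPM in NIHHL and 5.80 ± 0.616 CPM in Control libraries, with overlapping groups.

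The inner dynein arm tether and the adaptors of inner arm dyneins showed the same side. All 4 tested genes had a log2 fold change above 0 (median 0.51). In 3 of them every NIHHL library was above every Control library, a pattern found in 2.84% of all tested genes. These 4 genes are among the 55, so they add no separate result. Cfap44 (ENSMUSG00000071550, chr16:44394796-44482428, plus strand, GRCm38) encodes, with Cfap43, the tether that in Tetrahymena and Chlamydomonas holds the motor domain of an inner arm dynein to the doublet. It had 7.87, 8.33, 6.77 and 7.02 CPM in NIHHL replicates 1 to 4, against 5.26, 4.66 and 5.71 CPM in Control replicates 1 to 3. All NIHHL libraries were above all Control libraries, and the log2 fold change was 0.53 (SE 0.14, 95% interval 0.22 to 0.84). Its unadjusted edgeR p was 0.0031, its adjusted p 0.996 by edgeR's quasi-likelihood test, and its exact two-sided permutation p 0.0286.

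Cfap43 had 6.72, 7.41, 5.84 and 6.31 CPM in NIHHL, against 3.44, 5.66 and 4.72 CPM in Control libraries. The lowest NIHHL value lay just above the highest Control value, and the log2 fold change was 0.50 (SE 0.18). Cfap43 shares 164 exonic bases on the same strand with Itprip, so part of its count may depend on how shared reads were divided. Cfap57, an adaptor of inner arm dyneins in Chlamydomonas, had 2.67, 3.22, 1.76 and 2.18 CPM in NIHHL, against 1.21, 1.09 and 1.70 CPM in Control libraries. Its groups also did not overlap, with NIHHL replicate 3 and Control replicate 3 nearly level, and the log2 fold change was 0.88 (SE 0.28). Cfap100 averaged 3.63 ± 0.514 CPM in NIHHL and 3.08 ± 0.287 CPM in Control libraries, with overlapping groups.

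**Figure D3:**
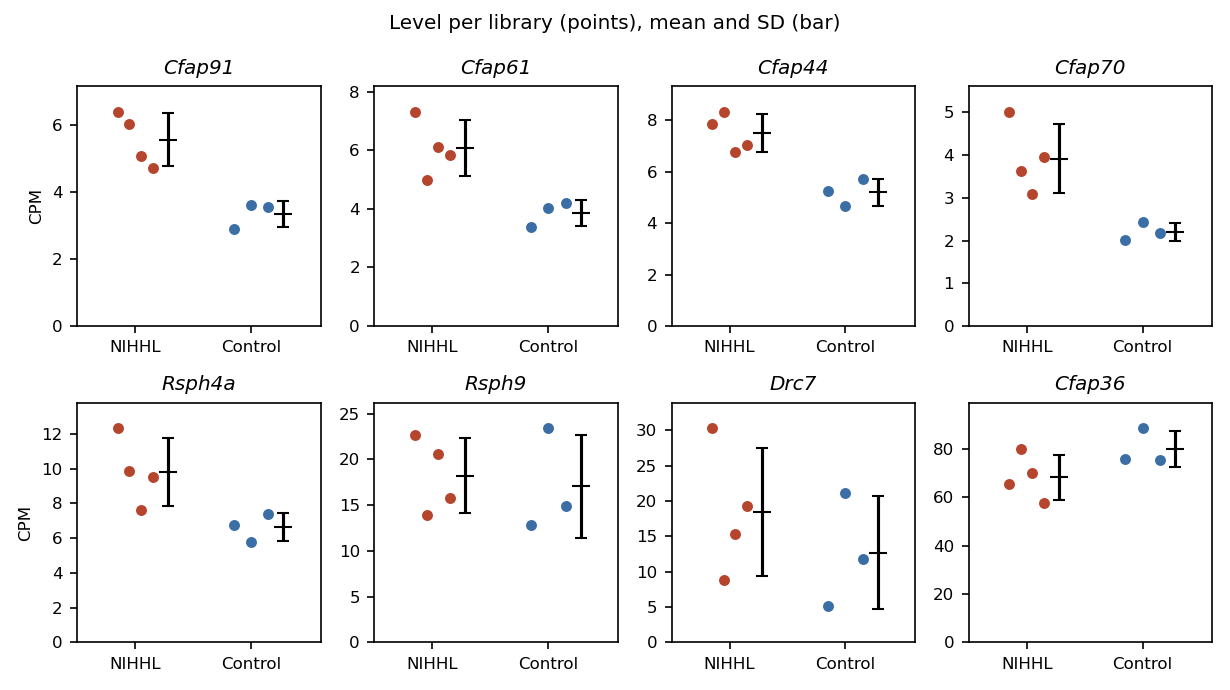
CPM in each library (points) and group mean with SD (bars) for Cfap91, Cfap61, Cfap44, Cfap70, Rsph4a, Rsph9, Drc7 and Cfap36, NIHHL left of Control. The first 5 genes have groups that do not overlap, and Rsph9, Drc7 and Cfap36 have overlapping groups.

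Genes of motile cilia are commonly driven by RFX transcription factors, which bind a site built on the letters GTTGCC, and by the forkhead factor Foxj1. The sequences printed here are the 250 bases before the start of 5 genes, from RefSeq (GRCm38.p6), 5′ to 3′ on the gene's own strand, chosen to show the proximal promoters of Cfap91, Cfap61 and Cfap44, whose groups do not overlap, beside those of Cfap161 and Cfap298, which carry the letters several times. Capitals mark each match to GTTGCC or its reverse complement GGCAAC. In coordinates they are chr16:38341861-38342110 (minus) for Cfap91, which RefSeq lists as Maats1, chr2:145934534-145934783 (plus) for Cfap61, chr16:44394549-44394798 (plus) for Cfap44, chr7:83794840-83795089 (minus) for Cfap161, and chr16:90934850-90935099 (minus) for Cfap298.
Cfap91: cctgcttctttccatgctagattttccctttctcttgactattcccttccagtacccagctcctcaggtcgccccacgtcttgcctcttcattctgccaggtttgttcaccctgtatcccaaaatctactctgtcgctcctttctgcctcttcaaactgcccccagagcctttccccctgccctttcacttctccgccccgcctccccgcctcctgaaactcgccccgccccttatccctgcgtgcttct
Cfap61: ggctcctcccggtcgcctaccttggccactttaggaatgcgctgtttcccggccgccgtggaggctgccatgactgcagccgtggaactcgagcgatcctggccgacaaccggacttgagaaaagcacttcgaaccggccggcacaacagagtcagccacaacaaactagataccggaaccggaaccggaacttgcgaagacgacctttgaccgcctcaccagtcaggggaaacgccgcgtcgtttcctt
Cfap44: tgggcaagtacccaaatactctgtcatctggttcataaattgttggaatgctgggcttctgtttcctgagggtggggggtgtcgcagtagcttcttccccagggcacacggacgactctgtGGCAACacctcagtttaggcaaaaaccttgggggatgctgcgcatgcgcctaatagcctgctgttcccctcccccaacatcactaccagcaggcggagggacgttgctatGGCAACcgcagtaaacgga
Cfap161: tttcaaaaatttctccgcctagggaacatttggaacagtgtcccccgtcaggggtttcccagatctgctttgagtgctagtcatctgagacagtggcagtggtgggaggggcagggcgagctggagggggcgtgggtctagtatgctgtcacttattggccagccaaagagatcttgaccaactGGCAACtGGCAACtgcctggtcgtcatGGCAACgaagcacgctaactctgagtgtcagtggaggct
Cfap298: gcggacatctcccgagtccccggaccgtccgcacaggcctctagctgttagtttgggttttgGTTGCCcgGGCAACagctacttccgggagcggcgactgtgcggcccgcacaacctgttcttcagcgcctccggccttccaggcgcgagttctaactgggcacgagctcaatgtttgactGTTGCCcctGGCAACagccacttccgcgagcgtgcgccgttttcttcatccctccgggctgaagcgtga

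The printed Cfap44 window holds the letters at 129 and at 19 bases before the start, while the Cfap91 and Cfap61 windows hold none. Of the 55 tested axoneme genes, 44 had a RefSeq promoter, and 15 of these held GTTGCC on either strand (34.1%), against 12.7% of 11382 tested genes and 11.8% of all 27025 genes with a promoter. The paired form, GTTNCC and GGNAAC with 2 bases between them, whose matches include some of the GTTGCC matches, was found in 3 of the 44 (6.82%), against 0.589% of tested genes. The forkhead core GTAAACA was found in 2 of the 44 (4.55%), against 2.72% of tested genes. The 15 genes with GTTGCC had a median log2 fold change of 0.19 with 11 higher in NIHHL, and the 29 lacking it had a median of 0.36 with 24 higher, a difference that was not tested. A match of letters in these windows is a description of sequence and does not show binding.

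The spoke heads, which meet the central pair, split into genes with higher levels in NIHHL and genes near level. Rsph4a, a head protein needed for spoke assembly in motile cilia, had 12.3, 9.88, 7.60 and 9.50 CPM in NIHHL replicates 1 to 4, against 6.74, 5.79 and 7.40 CPM in Control replicates 1 to 3. The groups did not overlap, with NIHHL replicate 3 close to Control replicate 3, and the log2 fold change was 0.57 (SE 0.17). Rsph1, another head protein, had 11.6, 10.3, 9.97 and 8.85 CPM in NIHHL, against 5.80, 9.36 and 7.40 CPM in Control libraries. NIHHL replicate 4 lay below Control replicate 2, and the log2 fold change was 0.43 (SE 0.16). Rsph9, also in the head, had 22.6, 13.9, 20.6 and 15.8 CPM in NIHHL, against 12.8, 23.4 and 14.9 CPM in Control libraries. Control libraries held both the lowest and the highest of the 7 values, and its log2 fold change was 0.09 (SE 0.23). Rsph10b averaged 3.49 ± 0.695 CPM in NIHHL and 3.15 ± 0.750 CPM in Control libraries, with a log2 fold change of 0.13 (SE 0.22). Without Control replicate 1 the log2 fold changes of Rsph9 and Rsph10b were below 0, at -0.070 and -0.038. Rsph9 was also below 0 without Control replicate 3 or without NIHHL replicate 1, and Rsph10b without NIHHL replicate 2.

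The stalk gene is present in the mouse as near-identical copies, Rsph3a and Rsph3b, whose deposited counts carry decimals, so the division of reads between them is uncertain. Rsph3a averaged 22.6 ± 3.25 CPM in NIHHL and 24.1 ± 2.41 CPM in Control libraries, and Rsph3b averaged 17.9 ± 1.22 CPM in NIHHL and 19.6 ± 3.72 CPM in Control libraries. Their sum, which does not depend on that division, averaged 40.5 ± 4.43 CPM in NIHHL and 43.7 ± 5.41 CPM in Control libraries. The stalk copies were thus among the few genes of the group with lower means in NIHHL, by less than the spread between libraries, and without Control replicate 2 the log2 fold change of Rsph3b was above 0, at 0.035.

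The 3 tested Drc genes had log2 fold changes near 0 or with a wide error. Drc1, part of the base plate that anchors the nexin-dynein regulatory complex to the doublet, averaged 8.84 ± 0.551 CPM in NIHHL and 8.56 ± 0.677 CPM in Control libraries, a log2 fold change of 0.04 (SE 0.12) that was -0.0088 without Control replicate 1. Drc3, in the linker, averaged 13.4 ± 1.97 CPM in NIHHL and 12.3 ± 2.22 CPM in Control libraries. Drc7, also in the linker, had 30.3, 8.85, 15.4 and 19.2 CPM in NIHHL, against 5.19, 21.1 and 11.8 CPM in Control libraries. It spread widely within both groups, and its log2 fold change of 0.52 had an SE of 0.59 and a 95% interval of -0.96 to 2.00. A list of further genes of the complex under other names also holds the radial spoke protein Lrrc23. It holds Ccdc146 too, whose place in the complex is not established here. All 10 tested genes of that list had a log2 fold change above 0, with a median of 0.53. Of the 10, 6 had an unadjusted edgeR p under 0.05, all on the higher side, against 2.32% of all tested genes. Lrrc23, which is counted among spoke genes with other names too and is the first by p in both lists, averaged 5.66 ± 1.09 CPM in NIHHL and 3.45 ± 0.495 CPM in Control libraries.

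All 8 tested genes of the central pair projections had a log2 fold change above 0 (median 0.41), and in none of them were the groups separate. Cfap54, a projection protein whose loss gives hydrocephalus in mice, had 12.7, 17.5, 10.8 and 13.2 CPM in NIHHL, against 10.1, 7.89 and 11 CPM in Control libraries. Only NIHHL replicate 3 fell within the Control range, and the log2 fold change was 0.49 (SE 0.17). Cfap65 had 10.8, 7.76, 5.34 and 7.02 CPM in NIHHL, against 4.25, 5.96 and 4.86 CPM in Control libraries. NIHHL replicate 3 again fell within the Control range, and the log2 fold change was 0.62 (SE 0.22). The other 6 genes, Cfap46, Cfap47, Cfap69, Cfap74, Cfap119 and Cfap221, had log2 fold changes of 0.09 to 0.46. The list of central pair genes with other names also holds Daw1, whose place in the central pair is not established here. Of the 12 tested genes on that list, 11 had a log2 fold change above 0 (median 0.47). Mycbpap was the first by p, at 4.20 ± 1.43 CPM in NIHHL and 2.19 ± 0.390 CPM in Control libraries.

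Of the 3 genes tied to the outer dynein arms, Cfap70 stood apart from the other two. Cfap70, a protein known from Chlamydomonas to lie at the base of the outer arm, had 5.02, 3.62, 3.08 and 3.95 CPM in NIHHL replicates 1 to 4, against 2.02, 2.43 and 2.17 CPM in Control replicates 1 to 3. Every NIHHL library was above every Control library, and the log2 fold change was 0.82 (SE 0.21). Its adjusted p was 0.996 by edgeR's quasi-likelihood test. The exact two-sided permutation p was 0.0286, the smallest that this test can give here, and 0.974 after adjustment. Cfap298, a factor for assembly of dynein arms, averaged 28.1 ± 4.15 CPM in NIHHL and 29.6 ± 5.40 CPM in Control libraries, and 703 of its 1589 exonic bases overlap Gm49727 on the opposite strand. Cfap300, another assembly factor, averaged 9.91 ± 0.828 CPM in NIHHL and 9.75 ± 2.40 CPM in Control libraries. Both assembly factors had overlapping groups, and without Control replicate 2 the log2 fold change of Cfap298 was 0.081, against -0.08 with all libraries.

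The 3 tested tektins, filament proteins inside the doublets, had higher means in NIHHL with overlapping groups. Tekt1, the tektin of ependymal and other motile cilia, had 10.5, 5.17, 7.76 and 7.20 CPM in NIHHL, against 1.89, 8.94 and 5.05 CPM in Control libraries. Control replicate 1 was far below the rest and Control replicate 2 above 3 of the 4 NIHHL libraries, so the log2 fold change of 0.50 had an SE of 0.46. Tekt5 averaged 7.90 ± 1.28 CPM in NIHHL and 6.19 ± 1.14 CPM in Control libraries, and its log2 fold change was 0.36 (SE 0.17). Tekt4 averaged 1.80 ± 0.529 CPM in NIHHL and 1.24 ± 0.390 CPM in Control libraries, and its log2 fold change was 0.52 (SE 0.32).

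Of 13 tested genes for other inner proteins of the doublets, 10 had a log2 fold change above 0, with a median of 0.35. An unadjusted edgeR p under 0.05 was found for 4, all higher in NIHHL, against 2.32% of all tested genes. Cfap210 had the largest fold change of the 55 genes from few reads: 22, 22, 22 and 31 counts in NIHHL, against 6, 18 and 17 counts in Control libraries. In CPM it had 1.01, 1.26, 1.21 and 1.83 in NIHHL, against 0.405, 0.755 and 0.802 in Control libraries, and its log2 fold change was 0.97 (SE 0.34). The groups did not overlap. Cfap52, which lies near the inner junction of the doublet, had 10.2, 5.80, 6.28 and 6.02 CPM in NIHHL, against 2.49, 5.75 and 4.24 CPM in Control libraries. Its groups were separate by a hair, between NIHHL replicate 2 and Control replicate 2, and its log2 fold change was 0.74 (SE 0.28). Cfap95 averaged 1.82 ± 0.503 CPM in NIHHL and 1.01 ± 0.390 CPM in Control libraries, and Cfap161 averaged 3.14 ± 1.02 CPM in NIHHL and 2.04 ± 0.388 CPM in Control libraries. Cfap90, on the other side, averaged 9.50 ± 1.51 CPM in NIHHL and 11.2 ± 1.28 CPM in Control libraries, a log2 fold change of -0.24 (SE 0.15) with overlapping groups.

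Genes with roles in primary cilia or in cells in general were close to level or lower. Cfap36 had 65.4, 80.0, 69.9 and 57.7 CPM in NIHHL, against 75.8, 88.6 and 75.5 CPM in Control libraries. NIHHL replicate 2 lay within the Control range and the other 3 below it, and the log2 fold change was -0.23 (SE 0.11, unadjusted edgeR p 0.0539). Cfap97, Cfap410 and Cfap418 had log2 fold changes of -0.10, -0.03 and 0.02. Of the 7 tested genes placed in no structure, 6 had a log2 fold change above 0. Cfap92 alone had groups that did not overlap, at 1.63 ± 0.227 CPM in NIHHL and 1.26 ± 0.054 CPM in Control libraries. Over all tested genes every NIHHL library was above every Control library in 2.84%. Of the 1047 exonic bases of Cfap92, 548 overlap E230015B07Rik on the opposite strand, so reads of these genes cannot be told apart here either.

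**Figure D4:**
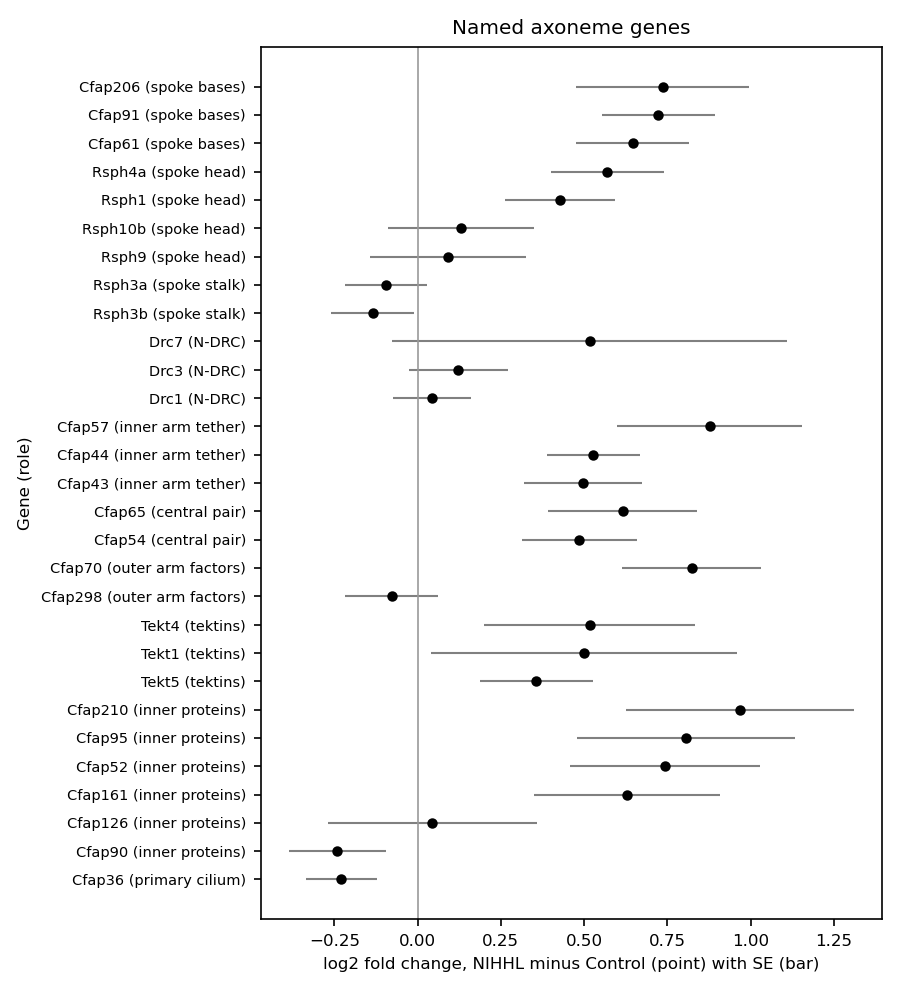
Log2 fold change (NIHHL over Control, x axis) as a point, with its SE as a bar, for named axoneme genes grouped by role (y axis). The spoke base, inner arm tether and central pair genes drawn lie above 0, Cfap36, Cfap90, Cfap298, Rsph3a and Rsph3b lie below it, and Drc7 has the longest bar.

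The 8 genes with too few counts were Cfap73, Cfap97d1, Cfap99, Cfap107, Rsph6a, Rsph14, Tekt2 and Tekt3. Their counts ran from 0 to 18 in a library. Cfap97d1 had no count in any library. Cfap107 had 2 and 1 counts in NIHHL replicates 1 and 4 and none in the other NIHHL or in the Control libraries. No fold is given for these genes at this depth.

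The libraries within each group were not alike in these genes. The CPM summed over all 63 genes was 627, 590, 577 and 535 in NIHHL replicates 1 to 4, against 490, 621 and 544 in Control replicates 1 to 3. The median deviation of the 55 genes from their own means was 0.26, 0.15, 0.06 and -0.01 (log2) in NIHHL, against -0.26, 0.02 and -0.13 in Control libraries. NIHHL replicate 1 was the highest library and Control replicate 1 the lowest by both measures. Control replicate 2 came next to NIHHL replicate 1 by the sum, and between NIHHL replicates 3 and 4 by the median deviation. Levels also followed transcript length within libraries: over 8383 genes, each gene's deviation from its mean correlated with exon length at a Spearman rho of -0.17, 0.10, -0.33 and 0.52 in NIHHL and 0.45, -0.58 and -0.10 in Control libraries. With that trend removed, the axoneme genes had a median of 0.33 and 45 of 55 were above 0.

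Markers of ependymal cells were mostly higher in NIHHL as well. Foxj1, the transcription factor of motile ciliogenesis, had 19.7, 17.3, 17.1 and 17.1 CPM in NIHHL, against 7.42, 11.5 and 15.1 CPM in Control libraries. All NIHHL libraries were above all Control libraries, and the log2 fold change was 0.64 (SE 0.19, adjusted p 0.996 by edgeR's quasi-likelihood test). Of 15 tested ependymal markers, 14 had a log2 fold change above 0 (median 0.41) and 5 had an unadjusted edgeR p under 0.05. All 5 were higher in NIHHL, against 2.32% of all tested genes with such a p on that side. Zmynd10, Ccdc153 and Dynlrb2 of that list are also in the lists of other axoneme genes. The ependymal markers summed to 122 to 151 CPM in NIHHL and 70.9 to 143 CPM in Control libraries. That sum includes Calml4, at 26.7, 4.83, 15.5 and 15.8 CPM in NIHHL and 2.76, 24.9 and 6.79 CPM in Control libraries. Calml4 had the same lowest and highest library in each group as the choroid plexus marker Ttr. The part of ependymal cells in the result was not tested.

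All 15 choroid plexus markers had a log2 fold change above 0 (median 0.71) and none had an unadjusted edgeR p under 0.05. Their summed level was 8874, 679, 4877 and 4564 CPM in NIHHL, against 209, 7262 and 1576 CPM in Control libraries. The groups overlapped over nearly the whole range, and no defining marker was at 0 in every library. Ttr, the thyroid hormone carrier of the choroid plexus and the largest part of the sum in every library but Control replicate 1, had 7826, 487, 4355 and 3864 CPM in NIHHL, against 56.3, 6558 and 1283 CPM in Control libraries. In 8 of the 55 axoneme genes (14.5%) the lowest and the highest library of each group were the same as for Ttr, against 3.76% of all tested genes: Cfap52, Cfap119, Cfap126, Cfap206, Drc3, Drc7, Rsph9 and Tekt1. With log2 CPM of Ttr as a covariate, the axoneme genes had a median of 0.22 and 39 of 55 were above 0, and the value for Drc7 was 0.07. With the same covariate Rsph9 had a log2 fold change of -0.12, Drc3 of -0.0014 and Cfap126 of -0.18, each opposite in sign to its value without it.

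**Figure D5:**
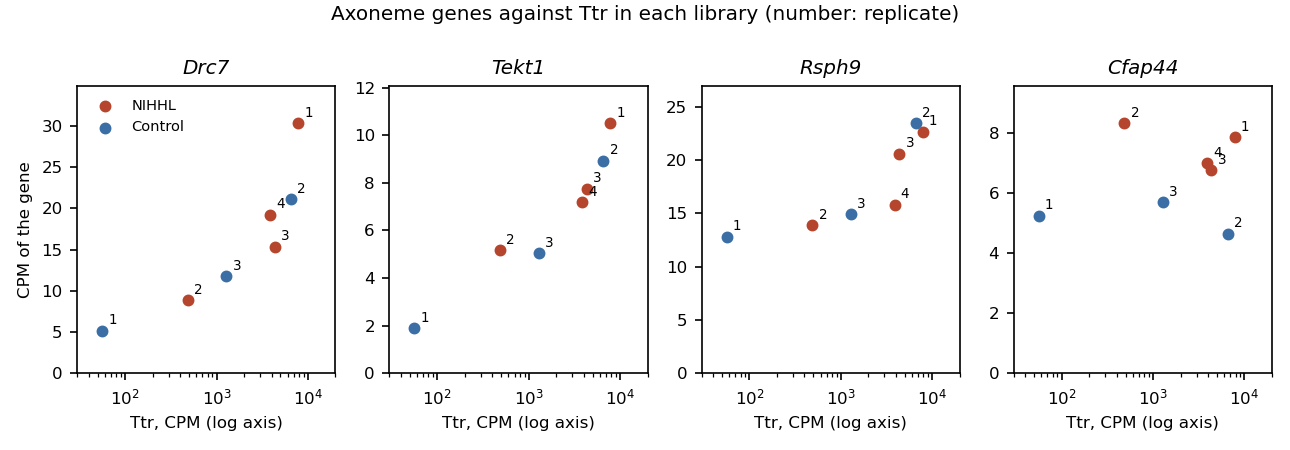
CPM of Drc7, Tekt1, Rsph9 and Cfap44 (y axes) against CPM of Ttr (x axis, log scale), 1 point per library, NIHHL and Control marked by colour. Drc7, Tekt1 and Rsph9 have their lowest and highest libraries of each group where Ttr has them, and Cfap44 does not, with all 4 NIHHL libraries above the 3 Control libraries.

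Markers of other cell types had smaller median log2 fold changes, though some lists also lay on one side. All 8 oligodendrocyte markers were above 0 (median 0.16), 3 of them with an unadjusted edgeR p under 0.05. All 8 astrocyte markers were above 0 (median 0.07), 1 with such a p. Over all tested genes 2.32% had such a p on the higher side and 1.31% on the lower side. Of 12 hippocampal neuron markers 5 were above 0 and 7 below (median -0.01), and 1, Snap25, had such a p on the lower side, with every NIHHL library below every Control library. Of 8 microglia markers 5 were above 0 (median 0.04), of 7 endothelial markers 3 (median -0.13) and of 8 meningeal fibroblast markers 7 (median 0.17), none with such a p. The part of these cell types in the result was not tested. Sperm markers, the other main source of these genes in the body, were at or near 0, and 1 of 15 passed the filter on low counts: Prm1, Prm2, Tnp1, Tnp2 and Akap4 had no count in any library, and all 15 together summed to 1.03 to 2.09 CPM in NIHHL and 1.80 to 2.36 CPM in Control libraries.

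Axoneme genes under other names, which the rule on symbols leaves out, had values close to those of the 55. Of 109 such genes listed, 83 were in the table and 73 were tested, of which 59 had a log2 fold change above 0 (80.8%), with a median of 0.37. No gene of these lists was called at an adjusted p under 0.05 by edgeR's quasi-likelihood test. An unadjusted edgeR p under 0.05 was found for 21 on the higher side and for 1, Dnaaf11, on the lower side. Over all tested genes the shares were 2.32% higher and 1.31% lower. In 16 of the 73 every NIHHL library was above every Control library (21.9%, against 2.84% of all tested genes). In 2, Dnaaf11 and Spag6, every NIHHL library was below every Control library, against 2.37% of all tested genes. Among dynein intermediate and light chains 8 of 10 were above 0, led by Dnai2 at 5.21 ± 1.02 CPM in NIHHL and 3.24 ± 0.871 CPM in Control libraries. Among docking and ruler proteins 6 of 7 were above 0, with Odad1 at 3.98 ± 0.750 CPM in NIHHL and 3.02 ± 0.513 CPM in Control libraries. Radial spoke genes with other names had 7 of 9 above 0. Of 12 dynein arm assembly factors 8 were above 0, with a median of 0.09, and the first by p was Zmynd10 at 3.44 ± 0.178 CPM in NIHHL and 2.21 ± 0.514 CPM in Control libraries. Of 14 inner proteins with other names 10 were above 0, led by Saxo4 at 3.55 ± 0.830 CPM in NIHHL and 1.69 ± 0.669 CPM in Control libraries.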

How the data were processed

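The 4 NIHHL and 3 Control RNA-seq libraries of hippocampus were compared. Per the labels' protocols, RNA was captured on oligo(dT) beads, made into libraries with a NEBNext Ultra kit and sequenced on an Illumina NovaSeq instrument. The authors deposited expected counts per gene, of which 90.7% were whole numbers (the rest carry decimals). StringTie 1.3.1, DESeq2, HISAT2 and Bowtie2 2.2.8 are listed, without roles, per the submitters' processing notes. Genome build, annotation and how reads were counted: not given in the sources used here.

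Expected counts were rounded, filtered with filterByExpr at a minimum count of 10 (14417 genes, 99.96% of counts) and scaled by TMM. The main test was edgeR's quasi-likelihood test of NIHHL against Control, adjusted by Benjamini-Hochberg over all tested genes, with group as the only term. An SE is the fold change (log2) over the root of its F statistic. Single genes were also tested by an exact two-sided permutation over 35 splits on log2 CPM with a prior count of 2. The test was also run on simulated counts with known changes and a single dispersion for all genes. That run lacked the differences between libraries seen here, so it does not show how the test performs in these data. Software was R 4.3.3, edgeR 4.0.16, limma 3.58.1 and DESeq2 1.42.0. Exon lengths and positions are from GENCODE M21 (GRCm38) and promoters from RefSeq; depth is given as total counts per library, and intervals cover the spread between libraries.

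The members and gene lists were chosen with earlier results of these data known. Named genes were Cfap44 and Cfap91, the 12 members with the smallest edgeR p, every tested Rsph, Drc and Tekt gene, the 3 lower members with the smallest p, the member with the highest CPM, and the first gene by p of each list of other axoneme genes, 24 members and 6 other genes in all. Cfap52, Cfap95, Cfap161, Cfap126, Cfap298 and Foxj1 were followed, and other members are named, after their values were seen. Alternatives were another scaling, no filter, DESeq2, limma-voom, a replicate block, Ttr as a covariate and leaving out libraries.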

Additional observations from a re-analysis of the deposited data

Results flagged for a closer look

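In Cfap52 the highest NIHHL library, replicate 1 at 10.2 CPM, lay far from the other 3 NIHHL libraries, which had 5.80 to 6.28 CPM. It was the single such gap among 29 groups of 4 libraries examined, and chance alone gives about 1 such gap for every 20 groups. Replicate 1 of NIHHL also had the highest level of Ttr. The part of that library in the value was not tested beyond leaving it out.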

How the results depend on the processing

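In every alternative no axoneme gene was called. DESeq2 called 4 genes in all, omitting both Control replicate 2 and NIHHL replicate 4 called 1, and the other alternatives called 0. Leaving out each library in turn gave 0 genes called, 37 to 48 axoneme genes higher in NIHHL, a median log2 fold change of 0.20 to 0.37 and 11 to 23 genes with groups that do not overlap, where fewer libraries also make such a pattern easier to meet. Such genes numbered 29 after both Control replicate 2 and NIHHL replicate 4 were dropped. Dropping only Control replicate 2 gave 23, and dropping only NIHHL replicate 4 gave 20. These counts are not split by direction. For the reduced sets of libraries no share over all tested genes is available, so the counts lack a background and do not show a stronger pattern. The median log2 fold change was 0.22 with Ttr as a covariate, 0.35 by DESeq2 and 0.32 by limma-voom.

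Of 36 genes followed, 28 kept their direction in every alternative. Most of the 36 were chosen by a small p in the main fit or after their values were seen. The alternatives also reuse the same libraries, so a kept direction is in part a result of that choice. With Ttr as a covariate Drc3 (-0.0014), Rsph9 (-0.12) and Cfap126 (-0.18) reversed. Omitting both libraries reversed Rsph3b (0.080), Rsph3a (0.062) and Cfap298 (0.15). With single libraries left out, log2 fold changes spanned -0.038 to 0.25 in Rsph10b, -0.070 to 0.40 in Rsph9, -0.0088 to 0.10 in Drc1, -0.20 to 0.57 in Cfap126, -0.25 to 0.035 in Rsph3b and -0.18 to 0.081 in Cfap298. The cause of these reversals was not tested. A replicate block, which the labels do not give as a pairing, left 0 axoneme genes called, 48 higher and a median of 0.36, and gave Rsph3a (0.0022) and Cfap298 (0.0059) the opposite sign. Same-numbered libraries correlated at -0.45, -0.44 and 0.06 in their deviations from the group means. NIHHL replicate 1 correlated best with Control replicate 2 (0.48), and NIHHL replicate 2 with Control replicate 1 (0.40). The removal of the length trend was chosen after seeing the data.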
